A study of Homo sapiens with 8 samples.

Results

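The genes described here are 10 that serve protein folding in the endoplasmic reticulum (ER) or the unfolded protein response (UPR): HSPA5, HSP90B1, DNAJB9, DNAJC3, SDF2L1, CALR, PDIA4, HERPUD1, EDEM1 and XBP1. They were taken by symbol from 2 tables of RNA-seq values, which together list 27776 Ensembl identifiers, and all 10 were present in both tables and passed the filter on low values. The cells were 769-P and CAKI-1, established human clear cell renal cell carcinoma lines, kept for 16 hours without branched-chain amino acids (BCAA) or with leucine at 0.38 mM, valine at 0.17 mM and isoleucine at 0.38 mM. Each cell line had 2 libraries with BCAA and 2 without, 8 in all. Before the treatment, 769-P cells were grown in RPMI and CAKI-1 cells in MEM medium, and the study's methods describe a BCAA-depleted medium made from amino acid-free RPMI powder with dialyzed serum. The labels do not say whether replicate libraries came from separate cultures, so p values measure the spread between these libraries, which may be technical. The genes were listed as targets of the ER stress factors XBP1 and ATF6, to set ER stress beside amino acid stress.

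Secreted and membrane proteins fold in the ER with the help of chaperones, among which HSPA5 (BiP, GRP78) is the central one. When unfolded proteins accumulate, the sensors ATF6, IRE1 (encoded by ERN1) and PERK (encoded by EIF2AK3) start the UPR. ATF6 and the spliced form of XBP1 raise chaperones and the machinery of ER-associated degradation, while PERK acts through ATF4. ATF4 is also raised by the kinase GCN2 when amino acids are short, so that ATF4 targets alone cannot tell ER stress from amino acid shortage, whereas targets of ATF6 and XBP1 report on the ER arm.

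The ER stress element is the DNA sequence through which ATF6 and XBP1 act together with the factor NF-Y. It is a CCAAT box followed, after 9 bases of any kind, by CCACG. The shorter ER stress element II is ATTGG followed, after 1 base of any kind, by CCACG. Both were searched for on both strands in RefSeq promoter windows (GRCh38.p14) that run from 250 bases before to 50 bases after a transcription start. All 10 members had a window, and XBP1 and PDIA4 had 2 each, which gave 12 windows. The exact ER stress element was present in 4 of these 12 windows (33.3%), against 27 of 35116 windows of all genes in the table (0.0769%). Element II was present in 2 of 12 (16.7%), against 19 of 35116 (0.0541%). Because the members were listed as targets of XBP1 and ATF6, an excess of these elements follows from that choice. It is therefore given as a description and was not tested. The matches are shown because members with the same element moved in opposite directions with BCAA. Capitals mark the element, which reads on the opposite strand in the second HSP90B1 window and in those of CALR and SDF2L1.
HSPA5 (chr9:125241386-125241414, reverse strand): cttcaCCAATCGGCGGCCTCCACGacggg
HSP90B1, first (chr12:103930211-103930239, forward strand): cctgaCCAATCGGAAGGAGCCACGcttcg
HSP90B1, second (chr12:103930316-103930344, forward strand): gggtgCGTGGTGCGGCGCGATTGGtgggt
CALR (chr19:12938379-12938407, forward strand): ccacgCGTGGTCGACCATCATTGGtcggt
XBP1 (chr22:28800598-28800626, reverse strand): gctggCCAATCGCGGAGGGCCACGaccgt
SDF2L1, element II (chr22:21642109-21642129, forward strand): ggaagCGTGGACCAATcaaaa
HERPUD1, element II (chr16:56932020-56932040, forward strand): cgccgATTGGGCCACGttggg

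The element began 66 bases before the start in HSPA5, 52 in XBP1, 225 in CALR, and 194 and 89 in HSP90B1. Element II began 188 bases before the start in SDF2L1 and 117 in HERPUD1. The windows of DNAJB9, DNAJC3, PDIA4 and EDEM1 held neither exact sequence, which says only that these letters are not in these windows. No member window held the letters TGACGTGG of the UPR element, present in 0.729% of all windows, or TGATGNAAT, a form of the C/EBP-ATF response element that ATF4 binds, present in 0.991%. Of the 26 windows of the ATF4 targets described below, only 1 (3.85%), that of FGF21, held TGATGNAAT. Its absence therefore does not set the members apart from ATF4 targets. A CCAAT box by itself was found in 11 of the 12 windows (91.7%), against 34.6% of all windows, and it is part of both ER stress elements. A sequence match is a description and not evidence of binding.

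**Figure D1:**
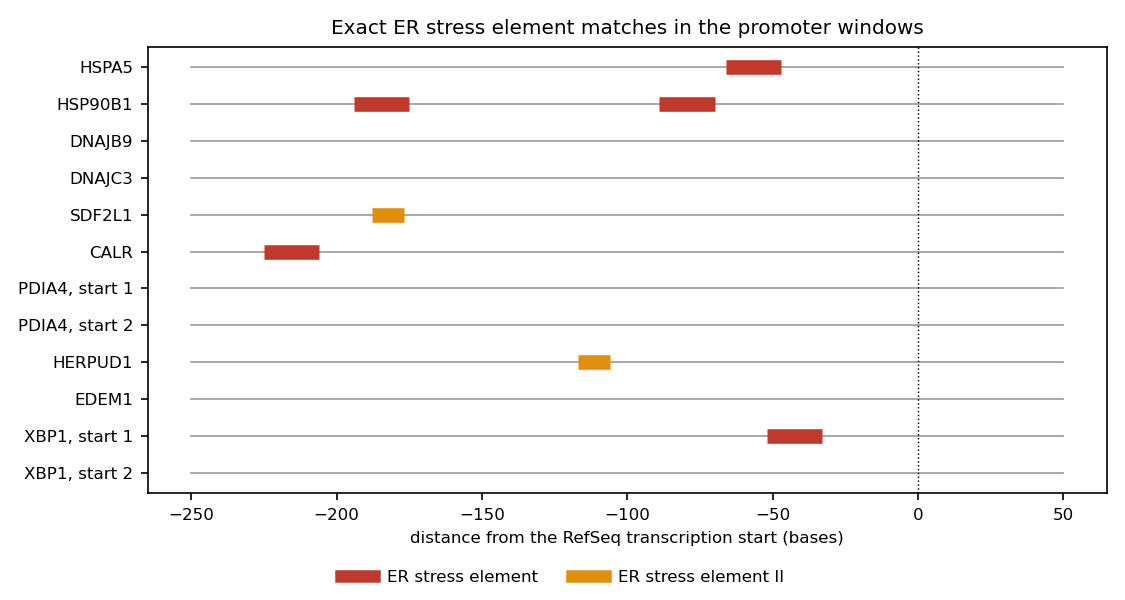
Positions of exact ER stress elements (red) and ER stress elements II (orange) in the promoter windows of the 10 genes, drawn by distance in bases from the RefSeq transcription start, with 2 windows each for PDIA4 and XBP1. Matches lay between 225 and 34 bases before the start, in 6 of the 12 windows.

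The values are normalized counts, that is, the number of reads on a gene after scaling by the authors for library size. Between 30979773 and 64256834 reads lay on the listed genes of a library, and the value of a member rested on 307 to 84048 reads. In 769-P, both libraries with BCAA were deeper than both without, and calls from reads thinned to equal depth are therefore given in the closing section. Each cell line was normalized on its own, so levels are compared only within a line. PAX8, a transcription factor of the kidney lineage, was expressed in both lines, at 15237 and 14547 normalized counts with BCAA and 23239.8 and 23271 without in 769-P, and between 8700.3 and 10739 in the 4 CAKI-1 libraries. CA9, a marker of clear cell tumors, had no row in either table. Leukocyte and endothelial markers reached at most 10.3 normalized counts in any library of 769-P and 6.65 in any of CAKI-1, and 3 and 4 of these 6 genes had no row. Their summed value moved with BCAA, from 1.22 to 4.97 without and 13.7 to 17.4 with BCAA in 769-P, and from 5.15 to 7.60 without and 0.973 and 2.496 with BCAA in CAKI-1, so these markers stayed near 0 in all libraries.

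**Figure D2:**
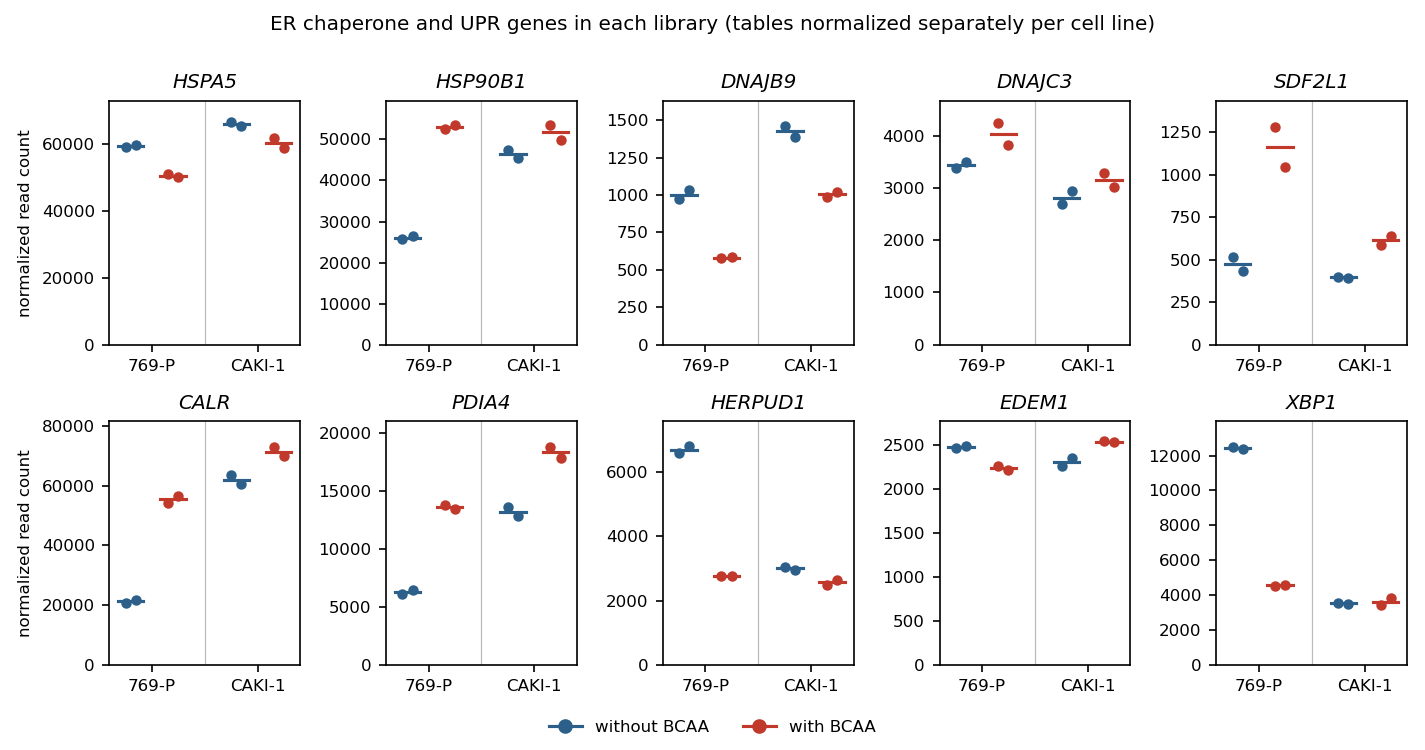
Normalized read count of each gene in each library (points) with the mean of the 2 libraries per condition (lines), without BCAA in blue and with BCAA in red. In 769-P the 2 conditions separated for every gene, with CALR, HSP90B1, PDIA4 and SDF2L1 higher and XBP1, HERPUD1 and DNAJB9 lower with BCAA, while in CAKI-1 the XBP1 values overlapped. Of all genes tested in 769-P, 33.6% separated with both BCAA libraries above and 33.5% with both below.

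BCAA split these genes rather than moving them together. In 769-P, CALR rose 2.59-fold, SDF2L1 2.44-fold, PDIA4 2.16-fold and HSP90B1 2.03-fold with BCAA, while XBP1 was 2.72-fold, HERPUD1 2.43-fold and DNAJB9 1.72-fold lower. The central chaperone HSPA5 was 1.18-fold lower with BCAA, and thus went against HSP90B1 and CALR, with which it is usually induced in ER stress. In CAKI-1, SDF2L1 (1.54-fold), PDIA4 (1.39-fold) and CALR (1.15-fold) rose and DNAJB9 (1.42-fold) and HERPUD1 (1.17-fold) fell. By limma with Benjamini-Hochberg adjustment over all genes tested, 9 of the 10 members were called in 769-P, against 38.4% of all 22391 genes, with 5 members higher and 4 lower against 20.3% and 18.2% of all genes. In CAKI-1, 5 members were called, against 19.9% of 21347 genes, with 3 members higher and 2 lower against 10.8% and 9.05%. These shares include low genes, which are harder to call than the members. With a mean value of at least 10 required, 8930 of 16047 genes and 10 members were called in 769-P. In CAKI-1 that filter gave 4449 of 15550 genes and 5 members. The median log2 fold change of the 10 members was 0.04 in 769-P and 0.15 in CAKI-1, beside -0.02 and -0.0085 over all genes tested, so that the median hides the split. From RNA of whole cultures, a change in the RNA of every cell and a change in the number of cells that express a gene cannot be told apart.

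HSPA5 (ENSG00000044574, chr9:125234853-125241330 of GENCODE 29 on GRCh38, reverse strand) binds exposed hydrophobic stretches of unfolded proteins and holds the UPR sensors inactive. In 769-P, its normalized counts were 50824 and 49981 with BCAA and 59142 and 59659.6 without. Both libraries with BCAA lay below both without, and the log2 fold change was -0.24 (SE 0.04, adjusted p = 2.0e-04). This call was lost when either 769-P library without BCAA was left out (adjusted p = 0.072 and 0.081). In CAKI-1 the counts were 61632 and 58649 with BCAA and 66531 and 65146 without, again without overlap, and the log2 fold change of -0.13 (95% confidence interval -0.26 to -0.0063) did not pass the threshold (adjusted p = 0.14). It was called lower by edgeR (adjusted p = 0.048) and with 1 spread from all libraries (adjusted p = 0.045), and was -0.0090 with quantile normalization (adjusted p = 0.93). The BCAA effect on HSPA5 was not shown to differ between the lines (769-P minus CAKI-1, -0.11, 95% confidence interval -0.24 to 0.029).

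HSP90B1 (GRP94, ENSG00000166598, chr12:103930107-103953645, forward strand) is the HSP90 of the ER and folds integrins and Toll-like receptors. Its counts in 769-P were 52508 and 53428 with BCAA and 25704 and 26475 without, a log2 fold change of 1.02 (SE 0.04, adjusted p = 1.4e-09). The groups lay far apart, and only 8.85% of all genes tested had a larger rise. The CAKI-1 counts of 53567 and 49931 with BCAA and 47449 and 45384 without gave a log2 fold change of 0.16 (95% confidence interval 0.03 to 0.29, adjusted p = 0.091), which did not pass the threshold but was called with 1 spread from all libraries (adjusted p = 0.029) and, at 0.26, with quantile normalization (adjusted p = 0.046). The difference between the lines was 0.87 (SE 0.07, adjusted p = 1.3e-06). Exons of HSP90B1 share 357 bases with TTC41P, MIR3652 and C12orf73, and C12orf73 on the other strand had between 219 and 437 reads per library. Its pseudogene HSP90B2P, to which the counting could have given reads of HSP90B1, held at most 0.182% as many reads as HSP90B1 in any library.

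DNAJB9 (ERdj4, ENSG00000128590, chr7:108569568-108574850, forward strand) is a J-domain cochaperone of HSPA5 that represses IRE1 and is a classical target of spliced XBP1. In 769-P it had 577 and 587 normalized counts with BCAA and 973 and 1035 without. In CAKI-1 it had 987 and 1023 with BCAA and 1464 and 1389.8 without. The groups did not overlap in either line, and the log2 fold change was -0.78 (SE 0.08, adjusted p = 9.1e-06) in 769-P and -0.50 (SE 0.08, adjusted p = 8.3e-04) in CAKI-1. It was the member with the largest fall in CAKI-1. The fall was not shown to differ between the lines (difference -0.28, 95% confidence interval -0.51 to -0.047, adjusted p = 0.085). Its exons share 282 bases with PNPLA8 and THAP5 on the opposite strand, which had 1208 to 2241 reads in a library, and whether the counting used strand is not given in the sources used here.

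DNAJC3 (p58IPK, ENSG00000102580, chr13:95677139-95794989, forward strand) is another J-domain cochaperone of HSPA5, first known as an inhibitor of eIF2 alpha kinases. It had 4238 and 3814 normalized counts with BCAA and 3387 and 3499 without in 769-P, and 3279.5 and 3021 with BCAA and 2688 and 2935 without in CAKI-1. All libraries with BCAA lay above all those without, but by little. The log2 fold change of 0.22 in 769-P (SE 0.06, adjusted p = 0.0098) lost its call when any 1 of the 4 libraries was left out, with adjusted p from 0.060 to 0.22, and with quantile normalization (adjusted p = 0.0502). In CAKI-1 it was 0.16 (95% confidence interval 0.0093 to 0.32, adjusted p = 0.14).

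SDF2L1 (ENSG00000128228, chr22:21642261-21644298, forward strand) joins HSPA5 and its cochaperone DNAJB11 and helps to keep misfolded proteins soluble. Its counts in 769-P were 1284 and 1048 with BCAA and 518 and 435 without, and those in CAKI-1 were 588 and 639 against 399 and 395. Each library with BCAA exceeded each library without. SDF2L1 rose by 1.29 on the log2 scale in 769-P (SE 0.11, adjusted p = 2.3e-06) and by 0.62 in CAKI-1 (SE 0.10, adjusted p = 0.0014), the largest rise of a member in that line. The rise was larger in 769-P by 0.66 (SE 0.16, adjusted p = 0.011), a difference not called without 769-P replicate 1 with BCAA or replicate 2 without BCAA (adjusted p = 0.066 and 0.057). Without either 769-P library with BCAA, the log2 fold change in 769-P was 1.14 or 1.43 and no longer called (adjusted p = 0.065 and 0.051).

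CALR, calreticulin (ENSG00000179218, chr19:12938578-12944489, forward strand), is a lectin chaperone that holds calcium and folds glycoproteins with PDIA3. In 769-P its counts were 54142 and 56638 with BCAA and 20861 and 21855 without, so that the groups lay far apart. The log2 fold change of 1.37 (SE 0.04, adjusted p = 3.6e-10) was the largest rise among the members, and 5.12% of all genes tested rose further. In CAKI-1 the counts were 72896 and 69934 with BCAA and 63586 and 60489 without, and the log2 fold change was 0.20 (SE 0.06, adjusted p = 0.030). This rise lost its call with no filter on low values (adjusted p = 0.057), with the replicate block (adjusted p = 0.054) and with thinned reads (adjusted p = 0.051), and was 0.40 with quantile normalization (adjusted p = 0.015). The difference between the lines was 1.17 (SE 0.07, adjusted p = 9.6e-08). Exons of CALR share 270 bases with AC092069.1 on the other strand, which had no row.

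PDIA4 (ERp72, ENSG00000155660, chr7:149003062-149028641, reverse strand) forms and rearranges disulfide bonds. It had 13741 and 13472 normalized counts with BCAA and 6096 and 6488 without in 769-P, a log2 fold change of 1.11 (SE 0.05, adjusted p = 3.8e-09). In CAKI-1 it had 18799.6 and 17838 with BCAA and 13633 and 12786 without, a log2 fold change of 0.47 (SE 0.06, adjusted p = 2.2e-04). The groups stood apart in both lines. The rise was larger in 769-P by 0.64 (SE 0.07, adjusted p = 3.7e-05).

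HERPUD1 (ENSG00000051108, chr16:56932048-56944863, forward strand) is a membrane protein that assembles the ubiquitin ligase complex of ER-associated degradation. Its gene is known to be induced both by ATF6 and by ATF4. Its counts in 769-P were 2763 and 2753 with BCAA and 6593 and 6799 without, and its log2 fold change was -1.28 (SE 0.05, adjusted p = 1.8e-09). In CAKI-1 the counts were 2495 and 2631 with BCAA and 3058 and 2952 without, also without overlap, with a log2 fold change of -0.23 (SE 0.06, adjusted p = 0.026). Under median centring the CAKI-1 value was -0.19 and was not called (adjusted p = 0.063). The fall was larger in 769-P, with a difference of -1.05 (SE 0.08, adjusted p = 6.2e-07).

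EDEM1 (ENSG00000134109, chr3:5187646-5219957, forward strand) directs misfolded glycoproteins to degradation and is a standard target of spliced XBP1. It had 2266 and 2221 normalized counts with BCAA and 2463 and 2494 without in 769-P, and 2551 and 2532 with BCAA and 2264 and 2351 without in CAKI-1. Thus EDEM1 was lower with BCAA in 769-P and higher with BCAA in CAKI-1, without overlap. Neither effect passed the threshold, with log2 fold changes of -0.14 in 769-P (95% confidence interval -0.26 to -0.023, adjusted p = 0.059, but called lower with thinned reads, quantile normalization or a higher filter) and 0.14 in CAKI-1 (95% confidence interval 6.5e-05 to 0.28, adjusted p = 0.16). The difference between them was called, at -0.28 (SE 0.08, adjusted p = 0.020), but not when any of 4 libraries was left out, namely replicate 2 with BCAA or either replicate without BCAA of 769-P or replicate 1 without BCAA of CAKI-1 (adjusted p from 0.059 to 0.076). Its exons share 653 bases with AC026202.3 on the other strand, which had no row.

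XBP1 (ENSG00000100219, chr22:28794555-28800597, reverse strand) encodes the transcription factor whose RNA is spliced by IRE1 when the ER is stressed. The tables count reads per gene and so give the total XBP1 RNA, spliced and unspliced together. In 769-P it had 4541 and 4598 normalized counts with BCAA and 12482 and 12359.9 without. This was the largest change of any member, with a log2 fold change of -1.44 (SE 0.04, adjusted p = 3.6e-10), and 5.06% of all genes tested fell further. In CAKI-1 its counts of 3431 and 3818 with BCAA and 3575 and 3498 without overlapped, and the log2 fold change was 0.034 (95% confidence interval -0.11 to 0.18, adjusted p = 0.79). The BCAA effect differed by -1.48 between the lines (SE 0.08, adjusted p = 4.1e-08).

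**Figure D3:**
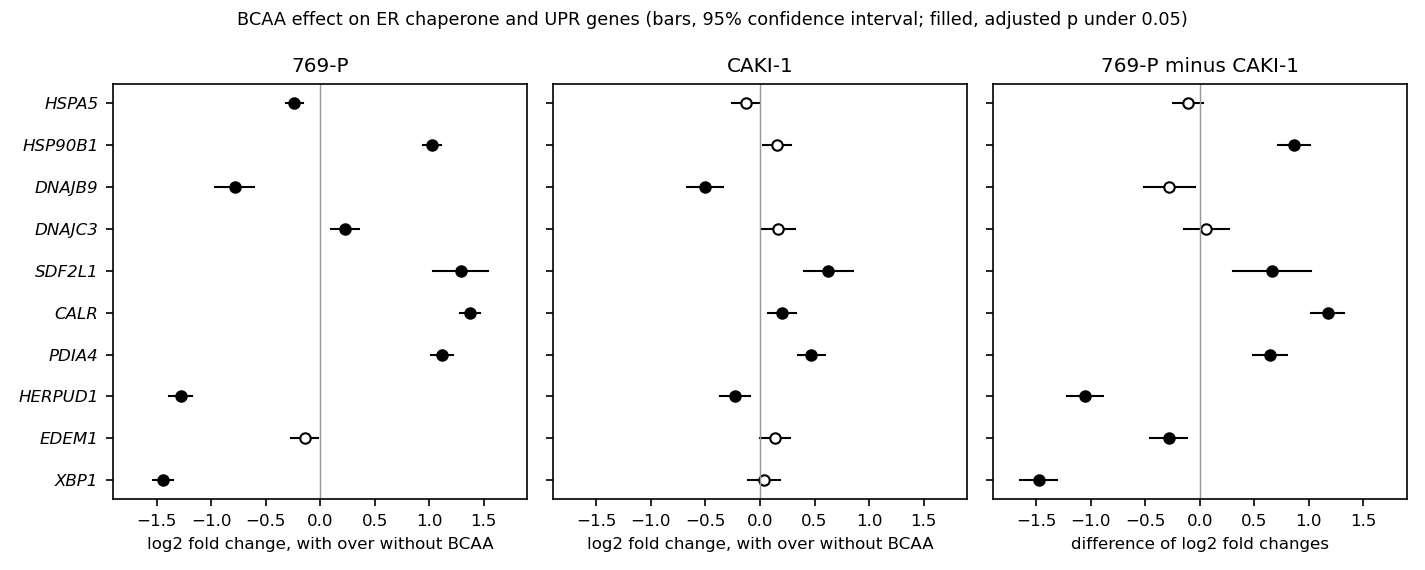
Log2 fold change with over without BCAA in 769-P (left) and CAKI-1 (middle) and their difference (right) for the 10 genes, with 95% confidence intervals from limma, filled points marking an adjusted p under 0.05. In 769-P the effects ran from -1.44 for XBP1 to 1.37 for CALR, and in CAKI-1 from -0.50 for DNAJB9 to 0.62 for SDF2L1.

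Read together, the BCAA effect differed between the lines for 7 of the 10 members, with the effect further up in 769-P for 4 (CALR, HSP90B1, SDF2L1 and PDIA4) and further down for 3 (XBP1, HERPUD1 and EDEM1). Over all 19406 genes tested in both lines, the effect differed for 21.1%, with 10.9% further up and 10.1% further down. Both libraries with BCAA stood above both without for 5 members in 769-P and for 6 in CAKI-1, where 33.6% and 28.9% of all genes did so. They stood below for 5 and for 3 members, beside 33.5% and 28.8%. SDF2L1, PDIA4 and CALR were called higher in both lines, as were 8.53% of the genes tested in both, and DNAJB9 and HERPUD1 were called lower in both, as were 5.83%. With any 1 CAKI-1 library left out, none of the 21100 to 21339 genes tested was called there by limma, members included, although 4235 to 5687 genes and 3 to 6 members had an unadjusted p under 0.05. Since no gene passed in these fits, the lost calls do not bear on the members in particular, and the log2 fold changes ran from 0.43 to 0.52 for PDIA4, from 0.56 to 0.68 for SDF2L1, from 0.17 to 0.24 for CALR, from -0.54 to -0.47 for DNAJB9 and from -0.27 to -0.19 for HERPUD1. On the reads of all 4 libraries, edgeR called 6 members and DESeq2 5.

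Members with an ER stress element in the promoter moved in both directions. Of the 4 genes with an exact ER stress element, HSP90B1 and CALR rose with BCAA in 769-P, and HSPA5 and XBP1 fell, HSPA5 by little (log2 fold change -0.24). In CAKI-1, CALR alone of these 4 was called, and the XBP1 values overlapped. Of the 2 genes with element II, SDF2L1 rose and HERPUD1 fell in both lines. These are counts over 6 genes and no test was made of them.

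Levels relative to one another were compared per kilobase (kb) of exon within a library, which does not depend on the scaling between libraries. The length used was that of the merged exons of all transcripts of a gene, such as 5155 bases for HERPUD1 and 1099 for SDF2L1. Which of 2 genes stood higher depends on these lengths, whereas the fold change of a ratio with BCAA does not. The ratio of HSPA5 to HSP90B1 in reads per kb was 2.76 and 2.71 without BCAA and 1.16 and 1.12 with BCAA in 769-P. In CAKI-1 it was 1.68 and 1.72 without BCAA and 1.38 and 1.41 with BCAA. On these lengths HSPA5 exceeded HSP90B1 in all 8 libraries, and by the widest margin in 769-P without BCAA. In reads not divided by length, HSP90B1 exceeded HSPA5 in both 769-P libraries with BCAA (69252 against 67031 and 62480 against 58449). CALR stood at 1.53 and 1.63 times HSPA5 per kb with BCAA and at 0.508 and 0.527 times without in 769-P, so that the more abundant of the pair changed with BCAA. In CAKI-1, CALR was the higher of the pair per kb throughout, at 1.70 and 1.72 times HSPA5 with BCAA and 1.38 and 1.34 times without. In reads not divided by length, CALR was below HSPA5 in both CAKI-1 libraries without BCAA (66905 against 70004 and 47006 against 50625). HERPUD1 reached 0.459 and 0.560 times the level of SDF2L1 per kb in 769-P with BCAA and 2.71 and 3.33 times without. The corresponding CAKI-1 ratios were 0.905 and 0.878 with BCAA and 1.63 and 1.59 without. These groups did not overlap in either line. PDIA4 stood at 0.322 and 0.321 times HSPA5 per kb with BCAA in 769-P, against 0.123 and 0.130 times without, and at 0.364 and 0.363 against 0.244 and 0.234 times in CAKI-1. The ratio of XBP1 to HSP90B1 was 0.134 and 0.133 with BCAA and 0.753 and 0.724 without in 769-P, whereas the CAKI-1 values ran from 0.0993 to 0.119 and overlapped. For a single ratio of 2 libraries against 2, the exact two-sided permutation test cannot give a p below 0.333.

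**Figure D4:**
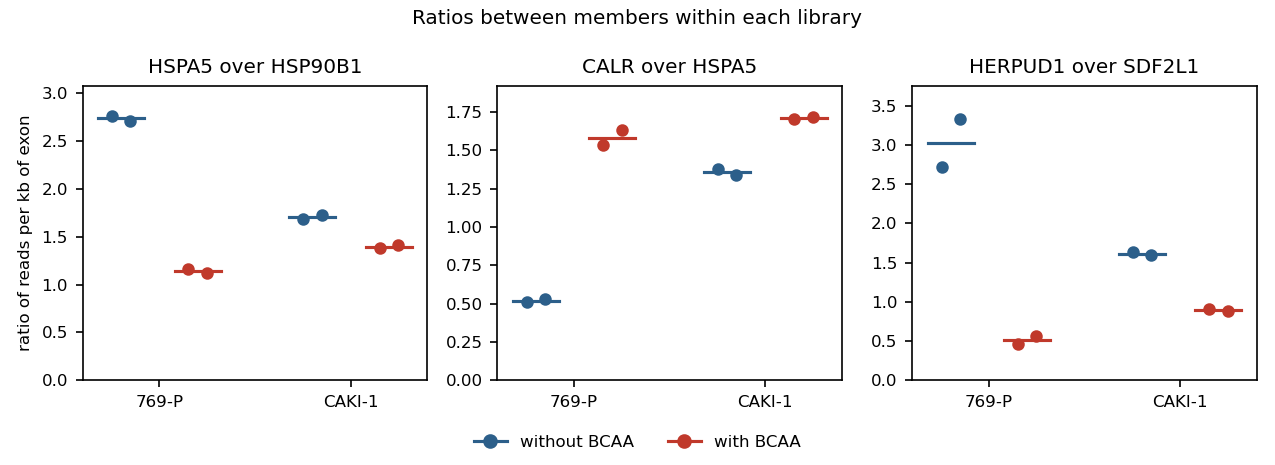
Ratio of reads per kb of exon between 2 members within each library (points) and the mean per condition (lines), without BCAA in blue and with BCAA in red. HSPA5 over HSP90B1 and HERPUD1 over SDF2L1 were lower and CALR over HSPA5 higher with BCAA in both lines, and the gap was wider in 769-P.

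Reads of the 10 genes together made up 0.285% and 0.288% of all reads of 769-P without BCAA and 0.384% and 0.395% with BCAA. In CAKI-1 they made up 0.518% and 0.495% without BCAA and 0.559% and 0.536% with BCAA. HSPA5, HSP90B1 and CALR supplied between 76.5% and 86.8% of these reads, so the sum mostly follows these abundant chaperones.

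Over all genes tested, limma called 20.3% higher and 18.2% lower in 769-P, and 10.8% and 9.05% in CAKI-1. These shares stand beside the counts of the lists that follow. Among 19 other ER folding genes, 11 were called higher and 2 lower in 769-P and 10 higher and 0 lower in CAKI-1 by limma. At an unadjusted p under 0.05, 0 of them were lower in CAKI-1 by limma, and edgeR and DESeq2 also called 10 higher and 0 lower there, while quantile normalization left 5 called higher. MANF, a secreted protein that binds HSPA5, rose by 1.11 on the log2 scale in 769-P and by 0.41 in CAKI-1. CRELD2, a disulfide isomerase, rose by 1.06 in 769-P, while HYOU1 (GRP170), the nucleotide exchange factor of HSPA5, fell by 0.65 and DNAJC10, a disulfide reductase with a J domain, fell by 0.40. In CAKI-1 the largest rises were those of TXNDC5 (0.73), another disulfide isomerase, and FKBP14 (0.63), a prolyl isomerase.

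Among 14 genes of ER translocation and signal peptide processing, 10 were called higher and 1 lower in 769-P, and 8 and 1 in CAKI-1. SRPRB, a subunit of the signal recognition particle receptor, rose by 0.77 in 769-P and 0.44 in CAKI-1, and SEC61B of the translocon rose by 0.63 in 769-P. SPCS3, a subunit of the signal peptidase, rose by 0.56 in CAKI-1, and SEC11C, a catalytic subunit of the same enzyme, was lower in both lines, at -0.24 and -0.31. Among 12 genes of ER to Golgi transport, 7 were higher and 1 lower in 769-P and 5 higher and 0 lower in CAKI-1. In CAKI-1, 0 were lower also at an unadjusted p under 0.05 in limma and by edgeR and DESeq2. With 9.05% of all genes called lower in CAKI-1, 0 of 12 is near that share. SEC24D, a cargo adaptor of COPII vesicles, rose by 1.45 in 769-P, the cargo receptor SURF4 by 0.65 in 769-P and 0.50 in CAKI-1, and the retrieval receptor KDELR2 by 0.46 in CAKI-1. SEC23B, also of the COPII coat, fell by 0.31 in 769-P.

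ER-associated degradation had more genes lower than higher in 769-P. Of 17 tested genes, 3 were called higher and 8 lower, beside 20.3% and 18.2% of all genes. SEL1L, the scaffold of the same ligase complex as HERPUD1, fell by 1.12 and SELENOS, which recruits the ATPase VCP, fell by 0.52. VCP itself rose by 0.61 and its adaptor FAF2 by 0.40. In CAKI-1, 4 of 17 were higher and 2 lower, led by UBE2G2, a ubiquitin-conjugating enzyme, at 0.51 and VCP at 0.41, and by MAN1B1, a mannosidase, at -0.36 and the lectin OS9 at -0.30. Of 9 tested UPR sensors and transducers, 4 were higher and 3 lower in 769-P, and 2 higher and 0 lower in CAKI-1. In CAKI-1, 0 were lower also at an unadjusted p under 0.05 in limma and by edgeR and DESeq2. With 9.05% of all genes called lower in CAKI-1, 0 of 9 is near that share. ERN1, which encodes the kinase and nuclease IRE1, had 217 and 144 normalized counts with BCAA and 673 and 714 without in 769-P, a log2 fold change of -1.97 (SE 0.17, adjusted p = 1.6e-06), and thus fell with its substrate XBP1. In CAKI-1 the log2 fold change of ERN1 was -0.16 (adjusted p = 0.40), and the difference between the lines was -1.81 (adjusted p = 9.5e-05). In 769-P, ATF6 fell by 0.38, while WFS1, an ER membrane protein, rose by 0.55 and TRAF2, an adaptor of IRE1, by 0.37. EIF2AK3, the gene of the third sensor PERK, went the other way from ERN1 and ATF6. It rose by 0.30 in 769-P (adjusted p = 0.031 by limma). Its log2 fold change in CAKI-1 was 0.24 and not called (adjusted p = 0.15). CREB3L2, a membrane-bound transcription factor, rose by 0.37 and TRAF2 by 0.24 in CAKI-1.

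PERK and amino acid shortage share the ATF4 arm. The genes of this arm were listed with earlier results of these data known, so the counts that follow describe the list and do not test it. All 20 genes of the arm were called lower with BCAA in 769-P by limma and edgeR (19 by DESeq2). Their median log2 fold change was -2.32, or -2.22 with FGF21, at 0 reads in both libraries with BCAA, placed at the bound that 3 reads per library allow. CHAC1, a glutathione-degrading enzyme, had 158 and 156 normalized counts with BCAA and 2103 and 2122 without (log2 fold change -3.74), and DDIT4, an inhibitor of mTORC1, fell by 3.15. In CAKI-1, 11 of 19 tested genes were lower and 1 higher, beside 9.05% and 10.8% of all genes. The median of the arm there was -0.33. DDIT3 (CHOP), a proapoptotic transcription factor, fell by 1.12, PPP1R15A (GADD34), a phosphatase subunit that ends the block on translation, fell by 0.96, and VLDLR, a lipoprotein receptor, rose by 0.29. In 769-P the arm ran from -3.74 to -0.97 on the log2 scale. This range held XBP1 and HERPUD1 of the members and none of the other 8. It also held ERN1 (-1.97) and SEL1L (-1.12) of the other lists. Of all genes tested, 6.84% fell further than HERPUD1 and 15.5% further than DNAJB9 (-0.78), the next member. The share beyond the upper edge of the range, -0.97, lies between these shares. The count of members in the range was therefore not read as a result about them. Control of these genes by ATF4 was not tested.

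**Figure D5:**
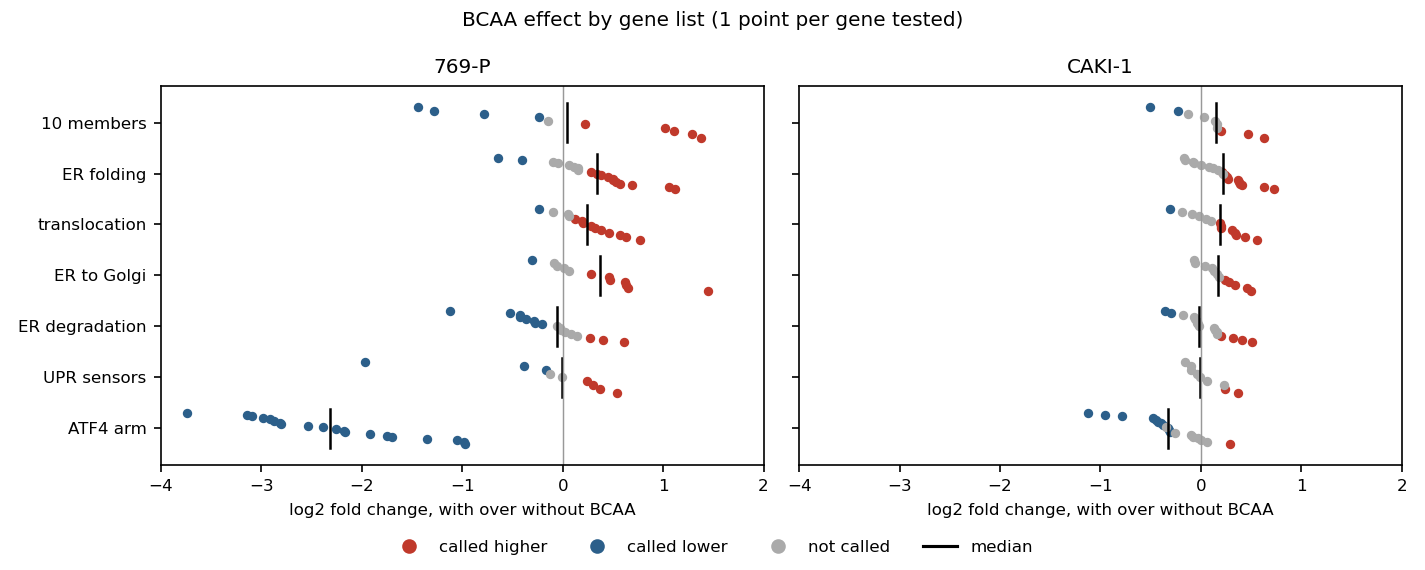
Log2 fold change with over without BCAA of every tested gene of the 10 members and of 6 other lists, in 769-P (left) and CAKI-1 (right), with the median of each list as a black line, genes called higher in red, lower in blue and not called in grey. In 769-P all 20 genes of the ATF4 arm lay to the left of 0, while the members lay on both sides.

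Genes whose pattern was most like that of HSPA5 were sought over the 8 libraries, on log2 values centred within each cell line, among 10880 other genes with a mean of at least 100 in both tables. The closest were ARHGEF28 and LINC00963 (Pearson correlation 0.997 and 0.997), BROX, TBC1D5 and ZNF33A (0.994 each). None of them is a member or belongs to the lists above. Of the members, DNAJB9 came nearest to HSPA5 (0.969, rank 113), followed by HERPUD1 (0.920, rank 826) and XBP1 (0.829, rank 2020). HSP90B1 (-0.898), CALR (-0.906), PDIA4 (-0.954) and SDF2L1 (-0.963) had the opposite pattern, as did DNAJC3 less closely (-0.782), and EDEM1 was at 0.278. Centring within each line leaves the BCAA effect and the spread between replicates, so the correlations are not separate evidence from the fold changes above. These correlations describe 8 libraries that share their scaling and, in 769-P, a difference in depth between the conditions.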

How the data were processed

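Total RNA of 769-P and CAKI-1 cells with or without BCAA was sequenced in 8 libraries, 2 per condition and line. For each line, the authors deposited normalized read numbers for Ensembl genes, a signal obtained by scaling the reads on a gene with a size factor. The factor of each library (0.777 to 1.32) was inferred by taking the smallest nonzero value of that library as 1 read. Multiplied by that factor, 100% of the values came out whole within 0.01, and these recovered reads served for the count tests. The submitters' processing notes name Trim Galore, TopHat2 2.1.0, SAMtools 1.3.1, HTSeq 0.6.0, DESeq, DESeq2 and hg38, with no role or order. Groups came from the sample titles, and each column matched 1 title.

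Identifiers were matched to symbols through GENCODE 29. Every gene whose mean over the 4 libraries reached 1 was tested with limma 3.58.1 (R 4.3.3, eBayes with trend) on log2(value + 1), which understates the change of low genes, within each line and without a replicate block. The difference between lines was tested as an interaction in 1 limma fit of all 8 libraries. Calls had a Benjamini-Hochberg adjusted p under 0.05 over all genes tested, with no minimum fold change. Alternatives included DESeq2 1.42.0, edgeR 4.0.16 and reads thinned to 30979773 per library. The fits were tested on simulated data first. Intervals on reads and the floor of 3 reads cover counting error only.

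The members and all lists were chosen with earlier results of these data known. Named were all members, PAX8 and CA9, up to 2 called genes that rose most and up to 2 that fell most from each other list in each line, and the 5 genes most like HSPA5. MANF and ERN1 in CAKI-1, EIF2AK3, CANX, and the related genes in the closing section, were named outside that rule. DERL3 and ATF6B of these lists had no row in either table and FGF21 had none in that of CAKI-1.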

Additional observations from a re-analysis of the deposited data

Results flagged for a closer look

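The BCAA effect differed between the cell lines for 7 members by the interaction term in limma (adjusted p from 4.1e-08 to 0.020). The difference, 769-P minus CAKI-1 on the log2 scale, was 1.17 for CALR, 0.87 for HSP90B1, 0.66 for SDF2L1 and 0.64 for PDIA4, genes that were higher with BCAA in every library of both lines. It was -1.48 for XBP1 and -1.05 for HERPUD1. For EDEM1 it was -0.28, with the libraries with BCAA lower in 769-P and higher in CAKI-1 and neither effect called by itself. Medium before the treatment differed between the lines and cannot be told apart from the line.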

How the results depend on the processing

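With other pseudocounts (0.1 and 5), other filters, median centring, quantile normalization, the replicate block, 1 spread from all libraries, edgeR, DESeq2 and thinned reads, 306 of 320 values of single members kept their direction and their side of the threshold, 6 lost and 7 gained a call, and 1 turned over (XBP1 in CAKI-1, -0.015 with quantile normalization). With thinned reads, 5 members were called higher and 5 lower in 769-P, among them the 9 called with all reads. EDEM1 in 769-P was called lower with a mean value of at least 10, quantile normalization and thinned reads. In CAKI-1, median centring left 1 member called lower, and a fold change of at least 1.5 left 1 called higher and 0 lower (limma without this minimum called 2 lower and edgeR 3, and 3 had an unadjusted p under 0.05), since DNAJB9 was 1.42-fold lower. Over all genes, quantile normalization called 2808 genes in CAKI-1, against 4243.

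Leaving out 1 library leaves a lone sample that is assumed to vary like the other group, and called 2968 to 3699 genes in 769-P, against 8605 with all libraries. It gave 3 to 4 members higher and 3 to 4 lower in 769-P. In CAKI-1 each such fit gave 0 members in each direction by limma, with 2 to 4 members higher and 1 to 3 lower at an unadjusted p under 0.05. The difference between lines gave 3 to 4 and 2 to 3 members. Values near 0 changed sign for XBP1 in CAKI-1 without replicate 2 with BCAA (range -0.043 to 0.11) and for the difference of DNAJC3 without 769-P replicate 1 with BCAA or CAKI-1 replicate 2 without BCAA (-0.0040, range -0.017 to 0.14).

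The labels share replicate numbers, but nothing says that a number marks a shared culture. Deviations of same-numbered libraries correlated at -0.088 in 769-P and 0.061 in CAKI-1. With the replicate block, 5 members were called higher and 4 lower in 769-P and 2 and 2 in CAKI-1, where CALR was not called (log2 fold change 0.20, adjusted p = 0.054), and the difference of EDEM1 was not called (-0.28, adjusted p = 0.052).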

Other observations

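Relatives of the members, named for their kinship after their values were seen, did not all follow them. In 769-P, SDF2 rose by 0.53 on the log2 scale (adjusted p = 6.9e-05 from limma) where its relative SDF2L1 rose by 1.29, and HERPUD2 fell by 0.43 (adjusted p = 8.8e-05) where HERPUD1 fell by 1.28. CANX, the membrane-bound counterpart of CALR, had a log2 fold change of -0.092 in 769-P (adjusted p = 0.091) and -0.082 in CAKI-1 (adjusted p = 0.36), while CALR rose in both. EDEM2 had log2 fold changes of -0.012 and -0.020 and EDEM3 of 0.14 and 0.16 in 769-P and CAKI-1, and none of these was called. In CAKI-1, SDF2 rose by 0.24 (adjusted p = 0.030) and HERPUD2 had a log2 fold change of -0.036 (adjusted p = 0.80).

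Exact ER stress elements were also present in the promoter windows of CANX, CRELD2, ERO1B and PDIA6 among the ER folding genes (6 of 27 windows, 22.2%), and in 0 of the 26 windows of the ATF4 arm. With the element in 0.0769% of all windows, 0 of 26 is near the share over all genes.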
